A study of Rattus norvegicus and Mus musculus with 12 samples.

Results

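The Indian hedgehog and parathyroid hormone-related protein (PTHrP) genes of the growth plate were followed in cultured rat and mouse chondrocytes with and without interleukin-1β (IL-1β). The members were 9 genes chosen by name: the ligands Ihh and Pthlh (the gene of PTHrP), the PTHrP receptor Pth1r, the hedgehog receptor Ptch1, the signal transducer Smo, the transcription factors Gli1, Gli2 and Gli3, and the hedgehog-binding inhibitor Hhip. The rat table held rows of 8 of them among 19687 genes, with none named Pthlh, and the mouse table held rows of all 9 among 28603 genes.

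In the growth plate, prehypertrophic chondrocytes make Ihh, and Ihh keeps up the production of PTHrP by cells nearer the end of the bone. PTHrP acts through Pth1r to hold chondrocytes in the proliferating state. Where Ihh binds Ptch1, Smo is released from inhibition in the primary cilium, less Gli3 is cut to its repressor form, and transcription of Gli1, Ptch1 and Hhip rises. These 3 genes are used as readouts of the pathway, and Ptch1 and Hhip also restrain it.

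The cells were chondrocytes of the first passage, grown from articular cartilage of newborn animals aged 24 h, so that they came from immature joints and had been expanded on plastic. The rat groups were an untreated control (RC) and an inflammation model (RM) from Sprague–Dawley (SD) rats, and the mouse groups were the matching control (MC) and model (MM) from C57BL/6 mice. RM and MM had received 20 ng/ml IL-1β for 24 h. Each of the 4 groups had 3 RNA-seq libraries, which the study's methods describe as independent samples. Whether these were separate animals or separate cultures was not given in the sources used here, and the P values measured the spread between them. The strain field ran from C57BL/6 to C57BL/9 across the mouse libraries of both groups, whereas the study's methods named C57BL/6 alone. The rising number may be a fill error in the field, which was not corrected here. The question was whether the same cytokine dose changed these genes alike in both species.

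Total counts ran from 20169272 to 25903459 reads in the rat libraries and from 16841580 to 20048322 reads in the mouse libraries. Rat replicates differed more from each other than mouse replicates did, with a biological coefficient of variation of 0.106 against 0.0318, so the same difference was called more readily in mouse. Between pairs of replicate libraries, the chi-square of the counts per degree of freedom was 6.07 to 27.8 in rat and 1.9 to 2.48 in mouse. How much spread between animals the mouse P values hold is not known. After TMM scaling, edgeR called 35.1% of the 13303 genes tested in rat and 75% of the 14774 tested in mouse at a Benjamini-Hochberg adjusted P under 0.05, and a called gene was therefore no rarity in mouse. The defining chondrocyte markers were present in both species, with Col2a1 at 2840 ± 298 FPKM in RC and 1350 ± 23.8 FPKM in MC (SD, n = 3). All 10 chondrocyte markers of the list used fell with IL-1β in each species, and their summed level was 4990–5620 FPKM in RC and 1980–2020 FPKM in RM, with 2360–2400 FPKM in MC and 205–218 FPKM in MM. In such bulk samples, fewer cells of a type and less RNA per cell cannot be told apart.

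The ligands were close to the detection limit in every group. Ihh in rat was 0.247, 0.493 and 0.208 FPKM in the 3 RC libraries and 0, 0.051 and 0 FPKM in the 3 RM libraries. These were 50 reads over the RC libraries and 3 over RM, and the groups did not overlap. The ratio of the scaled counts was 17, with an exact 95% interval of 5.51 to 85.4 that covered counting error only. All 3 RM reads were in RM2, and without that library the fitted log2 fold change moved from −3.93 to −7.05. Ihh reached the test through its RC libraries alone, so its values are a description and no P is given.

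Mouse Ihh was 0.115, 0.0584 and 0.0914 FPKM in MC and 0, 0.0503 and 0.0938 FPKM in MM, from 14 and 8 reads. The MC and MM libraries overlapped. Mouse Ihh was under the count filter and was not tested. Its count ratio, control to model, was 1.59 (95% interval 0.621 to 4.36, counting error only). The MM libraries held 0, 3 and 5 reads, and the interval leaves out such spread between libraries. It therefore sets no firm limit on a fall of mouse Ihh.

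Pthlh, which could be followed in mouse only, gave 0, 0.147 and 0.0688 FPKM in MC and 0.0616, 0.0316 and 0.106 FPKM in MM. With 6 reads in each group the libraries overlapped, and the count ratio, control to model, of 0.906 had an interval from 0.242 to 3.39 (counting error only). The other hedgehog ligand with rows in both tables, Dhh, had 1 read in RC, 4 in RM, 8 in MC and 14 in MM.

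**Figure D1:**
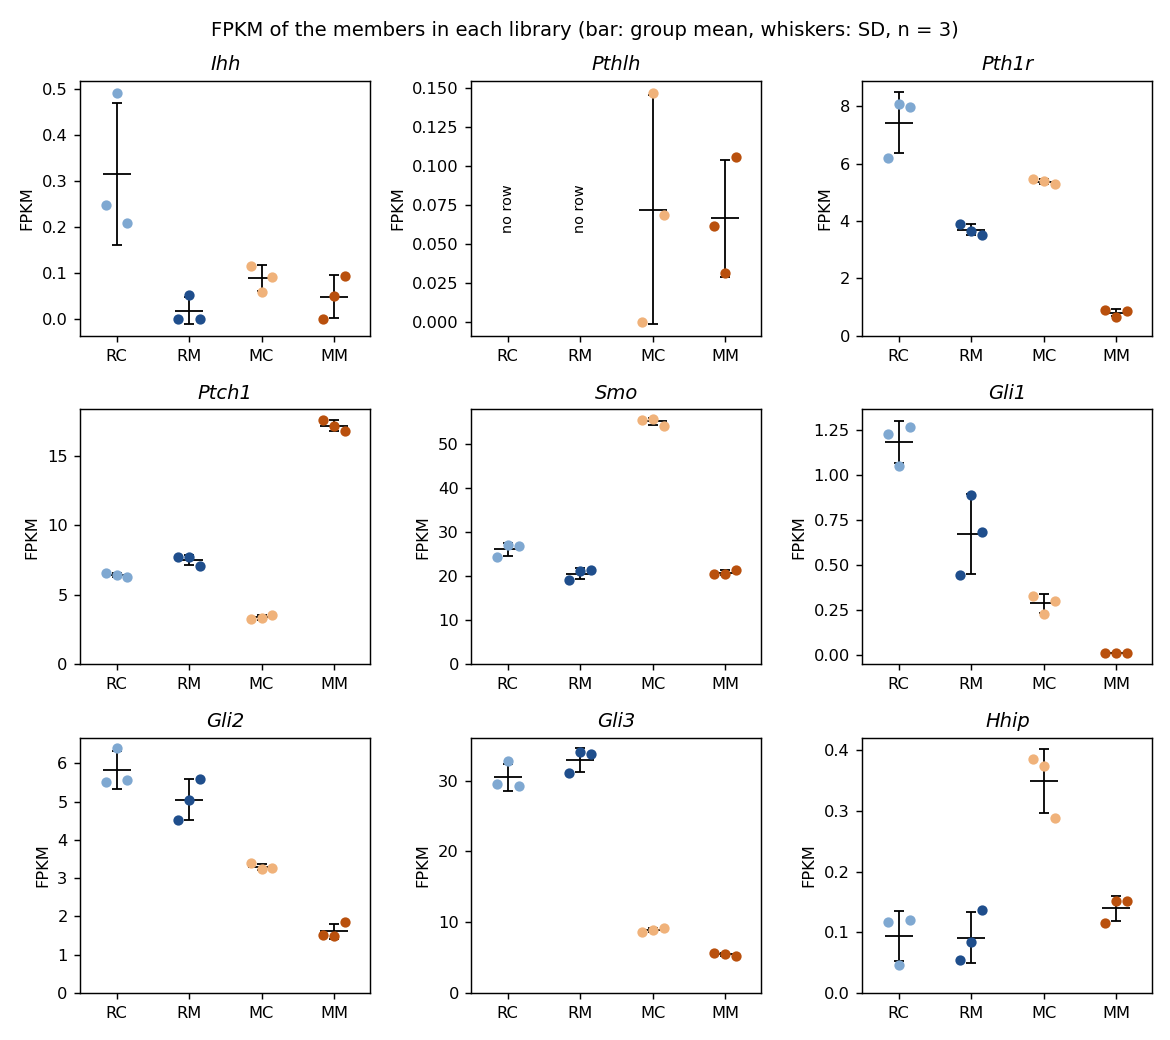
FPKM of each of the 9 members (one panel each, vertical axes differ) in the 3 libraries of RC, RM, MC and MM, with points for libraries, the bar for the group mean and whiskers for the SD. Ptch1 rises from about 3.38 to 17.1 FPKM in mouse while Gli1 drops to 0.0106 FPKM, and Gli3 does not separate RC from RM.

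Pth1r, the receptor that carries the PTHrP signal, fell in both species. In rat it was 6.19, 8.08 and 7.98 FPKM in RC against 3.91, 3.66 and 3.52 FPKM in RM. The groups were apart, and the log2 fold change was −1.02 ± 0.13 (SE, adjusted P = 0.000182, edgeR), a 2.03-fold lower level. In mouse Pth1r was 5.45, 5.38 and 5.29 FPKM in MC against 0.904, 0.664 and 0.88 FPKM in MM. All MM libraries were below all MC libraries, with a log2 fold change of −2.44 ± 0.14 (adjusted P = 2.9e-24, edgeR), a 5.43-fold lower level. The fall was greater in mouse by 1.42 on the log2 scale (95% interval of the difference −1.83 to −1.01, adjusted P = 5.68e-06). The mouse gene shares 95 exon bases with Myl3 on the opposite strand, and whether counting used the strand was not given in the sources used here.

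Ptch1, both the receptor of Ihh and a target of the pathway, was the member that rose. In mouse it was 3.24, 3.33 and 3.58 FPKM in MC and 17.6, 17.1 and 16.8 FPKM in MM. The groups were widely separated, and the fit gave a log2 fold change of 2.62 ± 0.041 (adjusted P = 7.4e-55, edgeR), or 6.14-fold. In the mouse data 7.68% of the genes tested had a larger change in either direction. Its rat values of 6.55, 6.4 and 6.3 FPKM in RC and 7.7, 7.74 and 7.06 FPKM in RM were also apart but close. The rat log2 fold change was 0.21 ± 0.074, and its adjusted P of 0.0499 (edgeR) passed 0.05 under few other settings, going to between 0.0561 and 0.185 when any of 5 libraries (RC2, RC3, RM1, RM2 or RM3) was left out. The difference between species was 2.41 on the log2 scale (95% interval 2.24 to 2.58, adjusted P = 1.65e-13).

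Smo, the transducer under the control of Ptch1, fell in both. Rat Smo was 24.4, 27.1 and 26.8 FPKM in RC and 19.1, 21.3 and 21.5 FPKM in RM. The groups did not overlap, and the level was 1.28-fold lower (log2 fold change −0.36 ± 0.08, adjusted P = 0.00621, edgeR). Mouse Smo was 55.5, 55.8 and 54.2 FPKM in MC and 20.5, 20.5 and 21.5 FPKM in MM. All MM libraries lay far under all MC libraries, and the level was 2.19-fold lower (log2 fold change −1.13 ± 0.034, adjusted P = 9.34e-39, edgeR). The fall was greater in mouse by 0.77 on the log2 scale (adjusted P = 3.4e-07, edgeR).

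Gli1, the Gli factor whose own transcription follows the pathway, was the lowest of the 3 Gli genes in every group. In rat it was 1.23, 1.05 and 1.27 FPKM in RC and 0.445, 0.89 and 0.685 FPKM in RM. The highest RM library stayed under the lowest RC library, with a log2 fold change of −0.82 ± 0.24 (adjusted P = 0.0241, edgeR). This call rested on few libraries: it was lost without RC3 (adjusted P = 0.0827), without RM1 (log2 fold change −0.6, adjusted P = 0.0652) and without RM3 (adjusted P = 0.0593). In mouse Gli1 was 0.327, 0.226 and 0.301 FPKM in MC and 0.00999, 0.0102 and 0.0115 FPKM in MM. That was 74 reads in MC against 1 read in each MM library, a count ratio of 22.4 (exact 95% interval 7.36 to 111, counting error only). Mouse Gli1 passed the count filter through MC alone, so this is a description and no P is given. It shares 327 exon bases with Arhgap9 and the antisense gene Gm47200 on the opposite strand.

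Gli2, the main activator among the Gli factors, gave 5.51, 6.41 and 5.55 FPKM in RC and 4.52, 5.03 and 5.59 FPKM in RM. The rat groups overlapped, and the log2 fold change of −0.22 ± 0.099 did not pass (adjusted P = 0.11, edgeR), although it did without RC1 (−0.28, adjusted P = 0.0286). Mouse Gli2 was 3.39, 3.23 and 3.26 FPKM in MC and 1.5, 1.49 and 1.84 FPKM in MM. The mouse groups were apart and Gli2 fell 1.69-fold (log2 fold change −0.76 ± 0.092, adjusted P = 5.12e-11, edgeR).

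Gli3, the main source of the Gli repressor, was the most abundant Gli gene in all groups. It was 29.5, 32.7 and 29.3 FPKM in RC and 31, 34 and 33.7 FPKM in RM. The rat groups overlapped, and the log2 fold change of 0.09 had a 95% interval of −0.07 to 0.26 (adjusted P = 0.365, edgeR). Mouse Gli3 was 8.58, 8.85 and 9.18 FPKM in MC and 5.69, 5.46 and 5.23 FPKM in MM. It fell in mouse by 1.34-fold without overlap (log2 fold change −0.42 ± 0.047, adjusted P = 4.66e-12, edgeR). The mouse gene shares 188 exon bases with Gm6556 on the opposite strand.

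Hhip, the decoy that takes up hedgehog ligand, was low in both species. Rat Hhip was 0.116, 0.0467 and 0.12 FPKM in RC and 0.0538, 0.0838 and 0.136 FPKM in RM. With 18 reads in each rat group the libraries overlapped, and the count ratio was 1.02 (95% interval 0.502 to 2.08, counting error only). Mouse Hhip was 0.386, 0.373 and 0.288 FPKM in MC and 0.115, 0.152 and 0.151 FPKM in MM. The mouse groups were apart, and Hhip fell 2.06-fold (log2 fold change −1.04 ± 0.25, adjusted P = 0.000137, edgeR). Mouse Hhip shares 175 exon bases with Gm27820 on the opposite strand. Thus of the 3 genes used as readouts, Ptch1 rose and Hhip fell in mouse, and Gli1 was near 0 in MM.

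**Figure D2:**
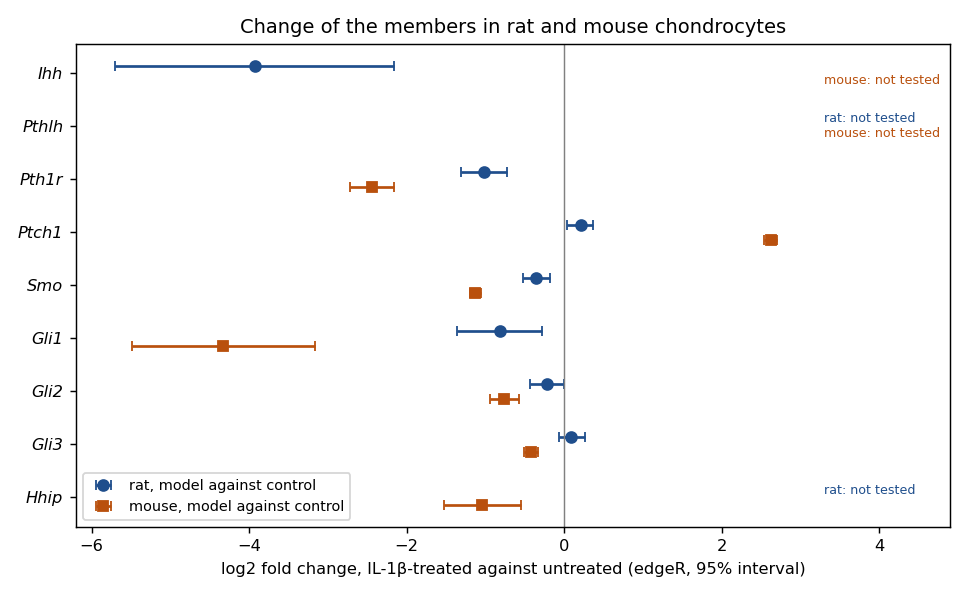
Log2 fold change of each member, model against control, in rat (circles) and mouse (squares), with the 95% interval of the edgeR fit. Mouse Ptch1 at 2.62 is the single point far to the right of 0, and the intervals of rat Ihh and mouse Gli1 are wide because 3 reads stand in the low group.

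Counted together, 5 of the 7 members tested in rat were called, beside 35.1% of all genes tested. These are counts of what was measured and support nothing further, since rat Ihh and mouse Gli1 are among them and entered through the group in which they were high. Without members under 10 reads in a group, 4 of 6 were called in rat and 6 of 6 in mouse. Of the 5 in rat, 1 was higher and 4 were lower in RM, where 18.3% and 16.8% of all genes were called in those directions. In mouse 7 of 7 were called, beside 75% of all genes, a background against which such a count says little. The mouse calls were 1 higher and 6 lower, with 37.4% and 37.7% of all genes called in those directions. The libraries of the groups did not overlap for 5 of the 8 rat members with a row (1 higher and 4 lower), where 47.8% of genes tested did not overlap, 25.5% higher and 22.3% lower. The same held for 7 of the 9 mouse members (1 higher and 6 lower), where the share of genes was 80.3%, with 25.4% higher and 54.9% lower. Over the tested members the median log2 fold change was −0.36 for rat and −1.04 for mouse (−0.29 and −0.9 without members under 10 reads in a group), beside 0.01 and −0.02 over all genes tested.

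The study asked for a fold change above 0.85, a P value under 0.05 and an FPKM of 1 or more. This was read here as a log2 change of 0.85 or more in either direction, an unadjusted P and at least 1 FPKM in a library. So read, Pth1r passed in rat, 1 member beside 8.54% of genes in either direction and 3.9% in its own. In mouse 3 members passed beside 25.6% of genes: Ptch1 among the 12.6% that were higher, and Pth1r and Smo among the 13% that were lower.

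Among the members tested in both species, 5 had at least 10 reads in every group. All 5 changed to a different degree in mouse than in rat, beside 63.8% of all genes so tested. The test was of mouse change minus rat change (edgeR over 10912 genes matched by symbol). In this fit rat and mouse libraries shared an estimate of the spread, although rat replicates differed more from each other. Ptch1 had the more positive change in mouse, as did 31.4% of genes, and the other 4 the more negative one, as did 32.3%. The differences of Gli2 and Gli3 were the smaller ones, at −0.54 (adjusted P = 0.00317) and −0.51 (adjusted P = 6.25e-05). Gli1 had a fitted difference of −3.54 that rests on the 3 MM reads and is given without a P. Hhip, with 18 reads in each rat group, was under the rat count filter and has no test of the difference. Species and its animals, culture and library set cannot be told apart in this design.

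The order of the members by FPKM, a level per transcript length, showed how the groups differed in makeup. In RC the order was Gli3, Smo, Pth1r, Ptch1, Gli2, Gli1, Ihh and Hhip, in which the libraries of Pth1r, Ptch1 and Gli2 overlapped with their neighbours. In RM Pth1r moved below Ptch1 and Gli2, and Ihh moved to the end. MC began with Smo at 55.2 ± 0.824 FPKM (SD, n = 3), which was above 97.4% of all rows of the mouse table, followed by Gli3, Pth1r, Ptch1 and Gli2, the last pair overlapping. In MM Ptch1 stood next to Smo, and Gli1, Ihh and Pthlh overlapped at the end.

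The ratio of Ptch1 to Gli1 summarised the split between both target genes. It lay between 4.94 and 6.11 in RC, 8.69 and 17.3 in RM, 9.9 and 14.7 in MC, and 1460 and 1760 in MM, where the denominator was 1 read in each library. The log2 ratio of Gli1 to Gli3 was −4.69 ± 0.238 in RC, −5.67 ± 0.437 in RM, −4.98 ± 0.293 in MC and −9.02 ± 0.164 in MM (SD, n = 3). The rat shift had an exact permutation P of 0.1, which is the smallest that 3 against 3 libraries can give. The mouse shift rests on 1 Gli1 read in each MM library, so it is a description and no P is given. The SD in MM accordingly holds no spread of Gli1 reads. The summed FPKM of the 3 Gli genes was 37.5 ± 2.26 in RC and 38.6 ± 2.28 in RM (exact permutation P = 1), and 12.5 ± 0.252 in MC and 7.08 ± 0.123 in MM (exact permutation P = 0.1).

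**Figure D3:**
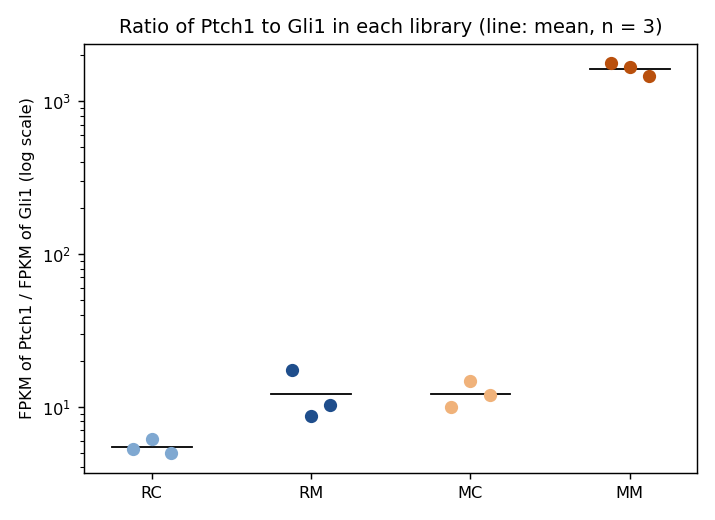
Ratio of the FPKM of Ptch1 to that of Gli1 in each library on a log axis, with points for libraries and lines for the group means of 3 libraries. RC, RM and MC lie between 4.94 and 17.3, and the MM libraries lie at 1460 or above.

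Promoters were read because Ptch1 and Hhip, both direct targets of Gli factors, moved apart in mouse. RefSeq promoters were at hand for rat only, in the build GRCr8, which is not the build Rnor_6.0 named for the counts, and they matched 6 of the 9 members (Pth1r, Ptch1, Smo, Gli2, Gli3 and Hhip). The Gli consensus GACCACCCA was searched on both strands (reverse complement TGGGTGGTC) in the 300 bases from 250 before to 50 after each gene start. It was present in 129 of 33469 rat promoters (0.385%) and in 1 of the 6 members, Ptch1, where it began 172 bases before the gene start. The 250 bases before the gene start are shown for Ptch1 (chr17:1555321-1555570, plus strand) with the match in capitals, and for Hhip (chr19:44767788-44768037, plus strand), where these letters did not occur.
Ptch1: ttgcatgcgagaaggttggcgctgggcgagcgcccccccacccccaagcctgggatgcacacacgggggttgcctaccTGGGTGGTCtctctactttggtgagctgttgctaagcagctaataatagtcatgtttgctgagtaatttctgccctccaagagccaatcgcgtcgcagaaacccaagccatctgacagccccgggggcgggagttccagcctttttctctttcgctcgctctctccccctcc
Hhip: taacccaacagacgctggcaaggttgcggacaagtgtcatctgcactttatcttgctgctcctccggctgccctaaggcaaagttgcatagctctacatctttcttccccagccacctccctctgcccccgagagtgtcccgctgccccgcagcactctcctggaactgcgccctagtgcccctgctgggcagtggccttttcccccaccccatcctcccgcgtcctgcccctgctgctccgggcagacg
The match is a description of these letters, and the mouse promoters were not analysed here. In rat, the species of these promoters, Hhip had 18 reads in each group and was not tested. Rat Ptch1 changed by 0.21 on the log2 scale, so the split seen in mouse was not seen in rat. Ptch1 and Hhip were picked for display after their mouse values were seen. Any part of the match in their changes was not tested.

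The mouse members are placed on GRCm38 as follows, with the GENCODE M21 gene bounds. Ihh lies at chr1:74945315-74951672 (minus strand), Pthlh at chr6:147252101-147264183 (minus), Pth1r at chr9:110722085-110747145 (minus), and Ptch1 at chr13:63508328-63573598 (minus). Smo lies at chr6:29735503-29761365 (plus), Gli1 at chr10:127329882-127341974 (minus), Gli2 at chr1:118834132-119053619 (minus), Gli3 at chr13:15463235-15730026 (plus) and Hhip at chr8:79965851-80058006 (minus). For all 9 the length implied by the FPKM values equalled the merged exons of the gene, so the level covers every annotated exon, untranslated parts included, and does not separate isoforms.

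The genes that release and carry the ligand changed differently in each species. Of the list of 7 (ligands included), 5 were tested in rat, with 1 higher and 2 lower, and 5 in mouse, with 1 higher and 4 lower. Over all genes tested, 18.3% were called higher and 16.8% lower in rat, and 37.4% and 37.7% in mouse. These shares are the background of every list count that follows. Scube3, of a family of secreted proteins that help to release lipid-bearing hedgehog, rose in rat from 0.761 ± 0.232 to 10.8 ± 0.25 FPKM (log2 fold change 3.8 ± 0.16 SE, adjusted P = 8.42e-08, edgeR) and fell in mouse from 2.24 ± 0.101 to 1.3 ± 0.179 FPKM (−0.51 ± 0.095, adjusted P = 3.07e-06). This difference between species was −4.31 on the log2 scale (adjusted P = 5.07e-12). Scube1 fell in both, by 1.46 in rat and 2.22 in mouse on the log2 scale. Scube2 fell too, with 70 reads in RC and 29 in RM, and 42 in MC against 1 in MM (count ratio 38.1, 95% interval 6.47 to 1540, counting error only). The rat call of Scube2 (adjusted P = 0.0148, edgeR) was lost without RC3 (0.06) or RM1 (0.0637), and the mouse fit moved from −4.82 to −6.78 without MM3, which held the 1 read. Disp1, the transporter that exports the ligand, fell in mouse from 18.6 ± 0.743 to 4.12 ± 0.0515 FPKM (log2 fold change −1.89, adjusted P = 4.76e-40), while its rat change of −0.22 did not pass (adjusted P = 0.102, edgeR).

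The co-receptors that present hedgehog to Ptch1 fell in both species. In the reception list of 6, 4 of the 5 tested in rat and 4 of the 4 tested in mouse were lower and none was higher. Of all genes tested, 16.8% were called lower in rat and 37.7% in mouse. Gas1 was 56.7 ± 4.43 FPKM in RC and 36.4 ± 4.78 FPKM in RM (log2 fold change −0.65), and 405 ± 7.94 FPKM in MC and 57 ± 4 FPKM in MM (−2.55). Boc fell by 0.89 in rat and 1.39 in mouse on the log2 scale. Gpc3, a glypican that binds hedgehog and restrains it, fell by 0.97 in rat and 2 in mouse. These 3 falls were greater in mouse, with adjusted P of the difference between 1.92e-10 and 2.05e-05 (edgeR).

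Among the 17 transduction genes, 4 fell and none rose in rat, whereas 7 rose and 7 fell in mouse. The mouse counts stand beside 37.4% of all genes higher and 37.7% lower, so they say little about the list. Evc2, a ciliary partner of Smo, fell by 0.58 in rat and 0.35 in mouse on the log2 scale. Its partner Evc fell by 1.06 in mouse, while its rat change of −0.22 (adjusted P = 0.0409, edgeR) passed without RC1 but not when any of the other 5 libraries was left out (adjusted P of 0.0542 to 0.147). Btrc, part of the ligase that begins Gli processing, fell by 0.35 in rat and 0.44 in mouse. Arrb1, an arrestin that also binds Pth1r, rose in mouse from 3.2 ± 0.141 to 12.3 ± 0.559 FPKM (log2 fold change 2.22, adjusted P = 1.56e-47, edgeR), with a rat change of 0.12 (adjusted P = 0.376). Spop, the adaptor of a ligase acting on Gli2 and Gli3, rose by 0.88 in mouse, with a rat change of −0.04 (adjusted P = 0.718, edgeR).

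Other genes known as hedgehog targets moved in both directions. Of 10 listed, 1 of 6 tested rose and 2 fell in rat, and 3 of 9 tested rose and 4 fell in mouse. Nkx3-2, a repressor of chondrocyte maturation, fell by 0.78 in rat and 1.25 in mouse on the log2 scale. Ccnd1, which encodes cyclin D1, fell in mouse from 74.3 ± 0.885 to 20.8 ± 0.19 FPKM (log2 fold change −1.56, adjusted P = 1.56e-46, edgeR) and was 213 ± 7.18 and 206 ± 14 FPKM in RC and RM (adjusted P = 0.479). Ccnd2, another D-type cyclin, fell by 0.69 in rat and 0.25 in mouse. Cdk6, a kinase partner of these cyclins, rose by 0.36 and 1.03, though its rat call was lost without RM1 (adjusted P = 0.0502). Sfrp1, a Wnt antagonist, fell by 1.14 in mouse and had a rat change of 0.43 that did not pass (adjusted P = 0.176, edgeR).

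Genes of the primary cilium, in which Smo and the Gli proteins act, showed small changes. In rat 8 of 34 tested rose and 3 fell, and in mouse 4 of 37 rose and 26 fell, and the list's median was 0.05 for rat and −0.32 for mouse on the log2 scale, beside 0.01 and −0.02 over all genes. The mouse split moves with the scaling, and library size alone gave 2 higher and 32 lower. Cep290, a transition zone protein, rose in rat by 0.85 (adjusted P = 0.00952, edgeR) and fell in mouse by 0.43 (adjusted P = 0.000147). Cep164, of the distal appendages, likewise rose by 0.32 in rat and fell by 0.56 in mouse. Dync2h1, the motor of retrograde transport, fell by 0.59 in mouse, with a rat change of 0.36 that did not pass (adjusted P = 0.122) but did without RC1 (0.6, adjusted P = 0.000147). Tulp3 fell in both, by 0.33 in rat and 0.19 in mouse. Kif3b, a subunit of the anterograde motor, rose by 0.6 in mouse.

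On the PTHrP side, 6 genes of 29 tested in the receptor signalling list (Gnas had 2 rows, neither called) rose and 4 fell in rat, and 18 of 29 rose and 7 fell in mouse (15 and 10 by library size alone). Nr4a2, an orphan receptor gene induced by cyclic AMP, rose in mouse from 1.83 ± 0.187 to 37.5 ± 1.87 FPKM (log2 fold change 4.64, adjusted P = 1.73e-58, edgeR) and was 1.65 ± 0.117 and 1.72 ± 0.225 FPKM in RC and RM (adjusted P = 0.852). Pde4b, which breaks down cyclic AMP, rose in both, by 1.41 in rat and 2.23 in mouse on the log2 scale. Slc9a3r1, a scaffold protein that binds Pth1r, rose by 1.02 in rat and 0.88 in mouse. Prkar2a, a regulatory subunit of protein kinase A, rose by 0.58 in each. Zfp521, a transcriptional regulator downstream of PTHrP, fell by 0.31 in rat and 1.63 in mouse, with the rat call lost without RM1 (adjusted P = 0.0524). Pth1r itself was lower in both model groups, as given above. The receptor signalling list shares Prkaca, Prkacb, Arrb1 and Arrb2 with the transduction list. It also shares Mef2c with the prehypertrophic and hypertrophic list.

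**Figure D4:**
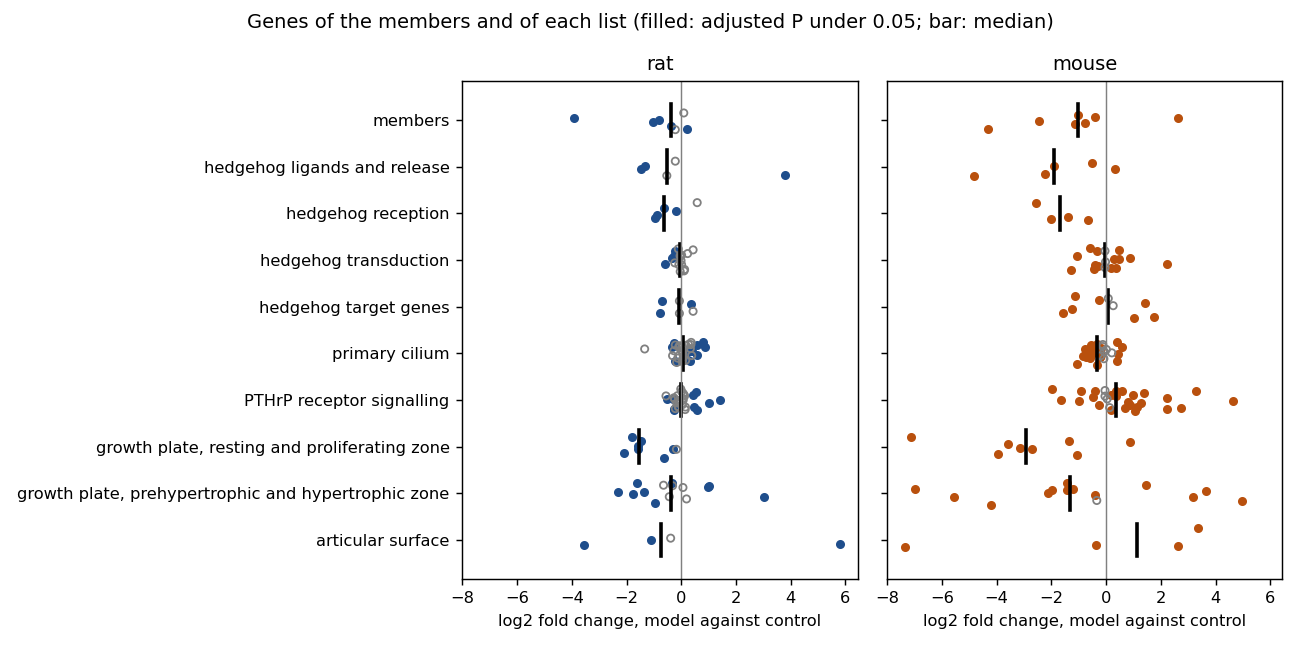
Log2 fold change, model against control, of every tested gene of the members and of 9 lists in rat (left) and mouse (right), filled where the adjusted P was under 0.05, open otherwise, with a bar at the median. The cilium list sits at a median of 0.05 in rat and −0.32 in mouse, and the resting and proliferating zone list at −1.54 and −2.94. Points of genes with 3 or fewer reads in a group, such as mouse Cilp and Scube2, depend on the prior count.

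Zone markers of the growth plate were read beside these changes. The resting and proliferating list shares Col2a1, Acan and Sox9 with the chondrocyte markers above, so its fall is not a separate result. Of 8 markers of the resting and proliferating zones, 7 fell in rat and none rose, and 7 fell and 1 rose in mouse. Fgfr3, which slows growth plate proliferation, fell in both, being 67.7 ± 3.59 FPKM in RC, 15.8 ± 1.01 in RM (log2 fold change −2.11), 16.1 ± 0.341 in MC and 1.49 ± 0.186 in MM (−3.16). Ucma, a marker of early chondrocytes, fell likewise, being 242 ± 21.2 FPKM in RC, 87.3 ± 6.09 in RM, 65.1 ± 0.607 in MC and 0.377 ± 0.026 in MM (log2 fold changes −1.48 and −7.13). Acan, the gene of aggrecan, fell by 1.8 in rat and 3.94 in mouse on the log2 scale, and Col2a1 by 1.6 and 3.57.

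The prehypertrophic and hypertrophic list, the zones that make Ihh, was divided. In rat 3 of 14 rose and 6 fell, and in mouse 4 of 14 rose and 9 fell. The genes that rose in both were Mmp13, the collagenase (3.03 in rat and 4.96 in mouse on the log2 scale), Spp1, encoding osteopontin (1.03 and 3.65), and Vegfa, the angiogenic factor (0.98 and 3.17). Alpl, the phosphatase of mineralising cells, fell by 2.32 in rat and 1.43 in mouse. Mmp13, Spp1 and Vegfa are also known as genes that inflammation induces.

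In the list of 4 articular surface genes, Prg4, the gene of lubricin, rose in both, being 8.49 ± 0.335 FPKM in RC, 476 ± 16.5 in RM (log2 fold change 5.79), 12.9 ± 0.299 in MC and 109 ± 5.03 in MM (3.36). Cilp, an intermediate layer protein, fell by 3.55 in rat and went from 64 reads to 0 in mouse, at least 19.3-fold lower against a floor of 3 reads over the group. Gdf5, a joint-forming factor, rose by 2.64 in mouse and had a rat change of −0.39 that did not pass (adjusted P = 0.0587, edgeR) but did without RC1 (−0.47, adjusted P = 0.0211). Erg, a transcription factor of articular chondrocytes, fell by 1.12 in rat and 0.37 in mouse.

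Markers of other cells moved beside the members. Osteoblasts also express Gli1 and Pth1r. In the osteoblast list 3 of 4 tested genes were lower in rat and 6 of 6 in mouse, beside 16.8% and 37.7% of all genes. Its summed level was 2040–2420 FPKM in RC, 1110–1250 in RM, 1890–1930 in MC and 554–566 in MM. The list shares Col1a1 with the fibroblast list, and Sp7, Ibsp and Alpl with the prehypertrophic and hypertrophic list. These lists are therefore not separate readouts of cell types. Of the fibroblast list, 1 of 7 tested was higher and 3 lower in rat, and 3 of 6 were higher and 3 lower in mouse, with sums of 3660–4200 and 2330–2450 FPKM in RC and RM and of 2280–2310 and 1500–1510 FPKM in MC and MM. Macrophage and leukocyte markers summed to 9.3–11.2 FPKM in RC, 9.89–14.9 in RM, 5.7–6.43 in MC and 10.4–13.2 in MM, with 1 of 5 tested higher and 2 lower in rat and 3 of 3 higher in mouse. Endothelial, muscle and glial markers each summed, list by list, to at most 4.35 FPKM in any library, with 0 of 2 tested called in rat and 4 of 4 lower in mouse. No listed marker with a row was at 0 in all libraries of a species. The part of these cells in the changes of Gli1, Pth1r and the other members was not tested.

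The genes whose pattern over the 12 libraries was most like that of Gli1 were Cthrc1, Slc38a4 and Scn3a, at a root mean square difference of 0.195, 0.22 and 0.222 in log2 CPM (counts scaled to the library total) centred on the controls of each species, among 10911 genes. Those most like Pth1r were H2afy2 (0.136), Slc17a9 (0.139) and Fgfrl1 (0.161). Cthrc1 changed by −0.88 in rat and −2.92 in mouse on the log2 scale, and Fgfrl1 by −1.02 and −2.22. Gli1 itself had fitted changes of −0.82 in rat and −4.33 in mouse. With 1 read in each MM library, its log2 CPM there was set largely by the prior count. The likeness of Cthrc1, Slc38a4 and Scn3a to Gli1 in mouse therefore rests on that setting. Pthlh was tested in neither species, so no such genes are named for it.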

How the data were processed

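Gene counts and FPKM values were deposited by the authors for 6 rat and 6 mouse libraries. Per the submitters' processing notes, reads were handled with HISAT2 and counts with HTSeq 0.11.2, with the builds Rnor_6.0 and GRCm38. The deposited FPKM values were recomputed from the deposited counts, gene length and library total, and all of 79104 rat and 86999 mouse values with at least 10 counts agreed within 0.1%.

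Raw counts were filtered (filterByExpr), scaled by TMM and tested with the quasi-likelihood test of edgeR 4.0.16 in R 4.3.3, model against control within each species, with Benjamini-Hochberg adjustment over all genes tested. The scripts were tested on simulated data. The change in mouse minus that in rat was tested in a joint fit of genes matched by symbol. TMM factors were 0.9941 to 1.008 in rat, 1.099 to 1.104 in MC and 0.9052 to 0.9107 in MM, and the median log2 fold change over mouse genes was −0.02 after TMM but −0.29 without it, so mouse FPKM ratios differ from the fitted folds. Changes are relative to the TMM centre. A count of 3 corresponds to 0.116 to 0.178 CPM. Intervals of count ratios are exact (conditional binomial, 95%) and cover counting error only.

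The members and lists were chosen with earlier results of these data known. All members were named, with the 3 genes of smallest P per list and species, and the 3 genes most like Gli1, Pth1r and Pthlh. A gene that the rule also names is not reported here. Dhh, outside that rule, was named after its values were seen. Alternatives were other scalings, no filter, an FPKM filter, DESeq2 1.42.0, limma 3.58.1 on log2(FPKM + 1) and log2(FPKM + 0.1), a replicate block, the criteria of the study and leaving out each library.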

Additional observations from a re-analysis of the deposited data

Results flagged for a closer look

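For 5 members the change with IL-1β differed between the species by a test of the difference itself, with Gli1 beside them as a description (mouse change minus rat change, log2, edgeR, adjusted over all 10912 matched genes, of which 63.8% passed). The differences were 2.41 for Ptch1 (adjusted P = 1.65e-13), −1.42 for Pth1r (adjusted P = 5.68e-06), −0.77 for Smo (adjusted P = 3.4e-07), −0.54 for Gli2 (adjusted P = 0.00317) and −0.51 for Gli3 (adjusted P = 6.25e-05). The fitted difference of Gli1 was −3.54, resting on 3 reads in MM, which entered the test through MC alone. Pth1r and Smo were called in the same direction in both species, while Gli2 and Gli3 were called in mouse only. Ptch1 was called higher in both, but its rat call (adjusted P = 0.0499, edgeR) was lost when any of 5 libraries was left out. The chondrocyte markers fell further in mouse as well, with differences of −1.96 for Col2a1 and −2.14 for Acan, and their part in these differences was not tested.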

How the results depend on the processing

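Of the members' fits under other settings, 184 kept their direction and side of the threshold, 22 were no longer past it, 1 came past it and 0 turned direction. For the other listed genes named by the rule these counts were 1140, 51, 3 and 2, the last being rat Nr4a2, which was not called and whose log2 fold change was −0.02 without RC2 and −0.07 without RM2 (range over single libraries left out −0.07 to 0.11). For the differences between species they were 104, 3, 0 and 1, the last being Gli1 at 0.05 with limma on log2(FPKM + 1), a scale on which values far below 1 FPKM are compressed by construction.

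The criteria of the study left 1 rat and 3 mouse members, 1136 rat and 3781 mouse genes, and 20 rat and 51 mouse genes of the pathway lists, in place of 54 and 106. With a difference of at least 0.85 required, 3 members and 3304 genes differed between species. Leaving out 1 library gave 3 to 6 rat members, with 3 without RC3, RM1 or RM3, while mouse members stayed at 7 to 7. The rat calls of Gli1 and Ptch1 were the ones lost, and of the listed genes rat Evc lost its call in 5 of 6 such fits. Called genes ranged from 3303 to 6251 for rat and 10824 to 10938 for mouse. Library size alone changed the mouse split of all called genes from 5521 higher and 5564 lower to 3699 and 8074, and that between species from 3429 and 3530 to 2191 and 5395. The mouse transduction list then had 5 higher and 10 lower, and mouse Ptch1 was at 2.34.

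Same-numbered replicates correlated at 0.03, −0.17 and 0.13 in rat and 0, 0.03 and 0.01 in mouse, so the numbers were not taken to pair the samples. With the replicate block 4 rat and 7 mouse members were called, beside 4534 rat and 11047 mouse genes, and rat Ptch1 was the member lost (adjusted P = 0.0887). Depth limits Ihh, Pthlh, rat Hhip and mouse Gli1, each with few reads in at least 1 group.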
